A study of Mus musculus with 54 samples.

Results

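The regions described here are 615 stretches of mouse chromatin that carried the marks of an active distal enhancer in cardiac precursors and again in cardiomyocytes, and did not qualify as active in embryonic stem cells. They were chosen from the authors' lists of enriched regions on chromosomes 1 to 19 and X. A region was active at a stage when joined H3K4me1 regions were present in all 3 libraries of that stage, H3K27ac was present in both libraries and H3K4me3 in none. Active regions of all stages were merged where they overlapped or touched, which gave 10115 merged regions, and the 615 are those that hold an active region of each of the later stages and none of the stem cells. Such a region could also hold one of the mesoderm stage, and 107 of the 615 (17.4%) did, beside 27.7% of all 10115.

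The study followed 129/Ola mouse embryonic stem cells as they were directed toward heart muscle in culture, with chromatin taken on day 0 from the stem cells themselves (ESC), on day 4 as mesoderm (MES), on day 5.3 as cardiac precursors (CP) and on day 10 as cardiomyocytes (CM). The single protocol in the labels runs through embryoid bodies in serum-free medium, with Activin A, BMP4 and VEGF added on reaggregation, and ends with plating in VEGF, basic FGF and FGF10. Each library is a bulk culture, so a mark in few cells and a weak mark in many cells cannot be told apart, and how pure each stage was is not checked here because the lists hold no genes. The H3K27ac libraries of the CM stage carry a stem cell label in the cell type field, but day 10 and CM in the other fields, and were used as CM here, so membership rests on that reading.

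H3K4me1 (monomethylation of lysine 4 on histone H3) marks enhancers both before and while they are active, and H3K27ac (acetylation of lysine 27) marks enhancers and promoters in use. H3K4me3 is found mainly at promoters, and H3K27me3 is laid down by the Polycomb repressor at silent developmental genes. RNA polymerase II phosphorylated on Ser5 of its tail (RNAPII Ser5P) is the form found soon after transcription starts, and active enhancers can carry it because they are often transcribed. Sequential use of enhancers is a known feature of heart development, in which some elements act briefly and others are kept in use as precursors mature.

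The authors' region lists, 1 per library, covered 46 libraries, with 12 of H3K4me1, 8 of H3K27ac, 8 of H3K4me3, 11 of H3K27me3 and 7 of RNAPII Ser5P. The lists differed in length, from 31571 to 96999 regions for H3K4me1 and from 25170 to 73186 for H3K27ac, and the read depth behind them is unknown. The H3K27me3 lists were the shortest, with 2929 to 38392 regions. Replicates are biological per the labels.

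Membership in both later stages was the less common outcome. Of the 2270 merged regions that hold a CP active region, 27.1% were among the 615, and of the 4227 that hold a CM active region, 14.5% were. Another 1626 merged regions hold a CP and no CM region, 3577 hold a CM and no CP region, both without ESC, and these serve below as the compared groups. A further 10 regions of CP and CM also hold an ESC active region and were left out. The number depends on requiring every library: it was 1449 without the libraries numbered 1, 1111 without those numbered 2 and 868 without those numbered 3.

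The precursor and cardiomyocyte elements were largely the same stretch of DNA. In all 615 the CP active region and the CM active region overlapped each other directly, and 558 (90.7%) held exactly 1 of each. For the 508 members without a MES active region the merging rule sets this contact, since only regions that meet are merged. How far the CP and CM regions overlap is not set by the rule. The median member had 1650 bases active at both stages, and the median share of its CM active bases that were also active in CP was 97.4%. In the other direction, the median share of CP active bases that were also active in CM was 84.6%. The highest points of the H3K27ac signal also lay close together between the stages. For the 4 pairs of a CP and a CM library, the median distance between them was 100 to 175 bases, and 55% to 61.8% of members had them within 250 bases. Libraries of the same stage differed by medians of 75 to 100 bases, with 64.9% to 66.8% within 250. For H3K4me1 the corresponding medians were 125 to 350 bases between the stages over 9 library pairs and 100 to 200 bases within a stage over 6 pairs. Positions are listed in steps of 25 bases.

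The shared regions were long. Their median length was 2600 bases, with quartiles at 1750 and 3937.5 and a range of 350 to 12775. The median was 1950 bases in regions of CP without CM, 1500 in regions of CM without CP and 1675 over all 10115. Among the 615, 150 (24.4%) spanned 4 kb or more, beside 9.08% of all active regions, 13.5% of CP without CM and 8.02% of CM without CP. Merging the regions of several stages adds length, but the single-stage regions inside them were longer too. The CP active regions inside members had a median of 2075 bases against 1850 in regions of CP without CM, and the CM active regions had 1850 against 1475. The length of a region is set by the H3K4me1 calls that the rule used, so these lengths are a description, with no test.

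**Figure D1:**
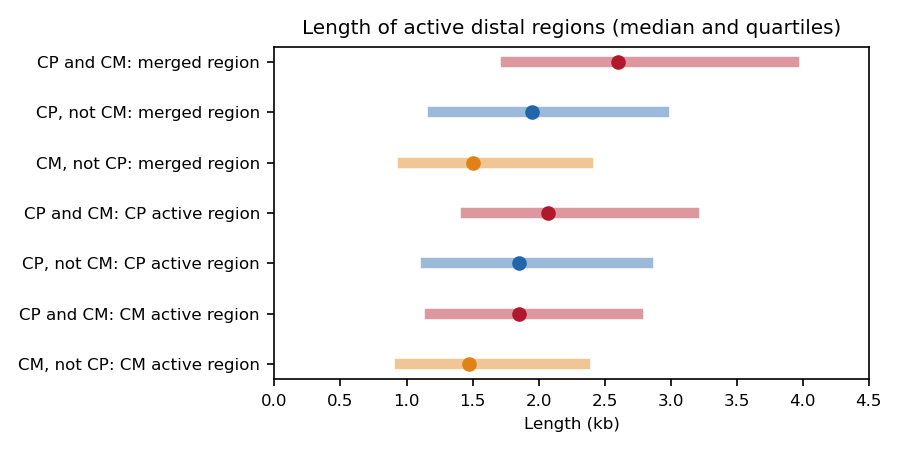
Length in kb (x axis) of merged active distal regions and of the single-stage active regions inside them, by group (y axis), with points at the median and bars from the lower to the upper quartile. Regions active in CP and CM had a median of 2600 bases, against 1950 and 1500 in the other 2 groups, and their CP and CM parts alone were also longer.

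The 5 longest members were chr7:119895426-119908200 (12775 bases), chr7:119913576-119925450 (11875 bases), chr15:77625326-77636875 (11550 bases), chr2:35530326-35540675 (10350 bases) and chr7:123332351-123342600 (10250 bases). Positions are those of the mm9 build, counted from 1, and no gene is named because the annotation at hand is of another build. The first and the second of these lie next to each other on chromosome 7. The longest, chr7:119895426-119908200, had H3K4me1 in no ESC library and in all 3 MES libraries, with peak heights of 77, 127 and 103 in MES, 149, 60 and 127 in CP and 113, 73 and 103 in CM. Its H3K27ac peak heights were 61 and 85 in MES, 72 and 70 in CP and 155 and 163 in CM, and it was not listed for H3K27ac in ESC. Although both marks were called somewhere in it in every MES library, it holds no MES active region. No joined MES H3K4me1 region that overlaps it met the whole rule, and which part of the rule failed was not examined. Its neighbour, chr7:119913576-119925450, had H3K27ac heights of 80 and 56 in CP and 52 and 79 in CM, and was listed in 1 of the 2 libraries each in ESC and MES. The region chr2:35530326-35540675 had H3K27ac heights of 217 and 219 in MES, 47 and 41 in CP and 63 and 81 in CM, and with H3K4me3 in both ESC libraries and 1 MES library. Heights are the highest point of a called region in the authors' lists and are not scaled between libraries, so values compare regions within a library, not stages.

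By the rank of peak height within each library's own list, the members stood high in H3K4me1 and nearer the middle in H3K27ac. A rank of 90 means that the region's highest call was above 90% of the calls of that library. The median H3K4me1 rank of the members was 87.6, 88.6 and 84.0 in the 3 CP libraries and 84.1, 88.8 and 82.2 in the 3 CM libraries. Regions of CP without CM had medians of 79.6, 84.5 and 78.2 in CP, and regions of CM without CP had 73.9, 82.9 and 74.6 in CM. In each of these 6 libraries the median of the shared regions was the higher one. The median H3K27ac rank of the members was 64.6 and 48.8 in the CP libraries and 56.7 and 63.4 in the CM libraries. For regions of CP without CM it was 53.0 and 42.3 in CP, and for regions of CM without CP it was 45.2 and 57.7 in CM. These marks chose the members, and a longer region can hold more calls, so the ranks are given with no test.

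**Figure D2:**
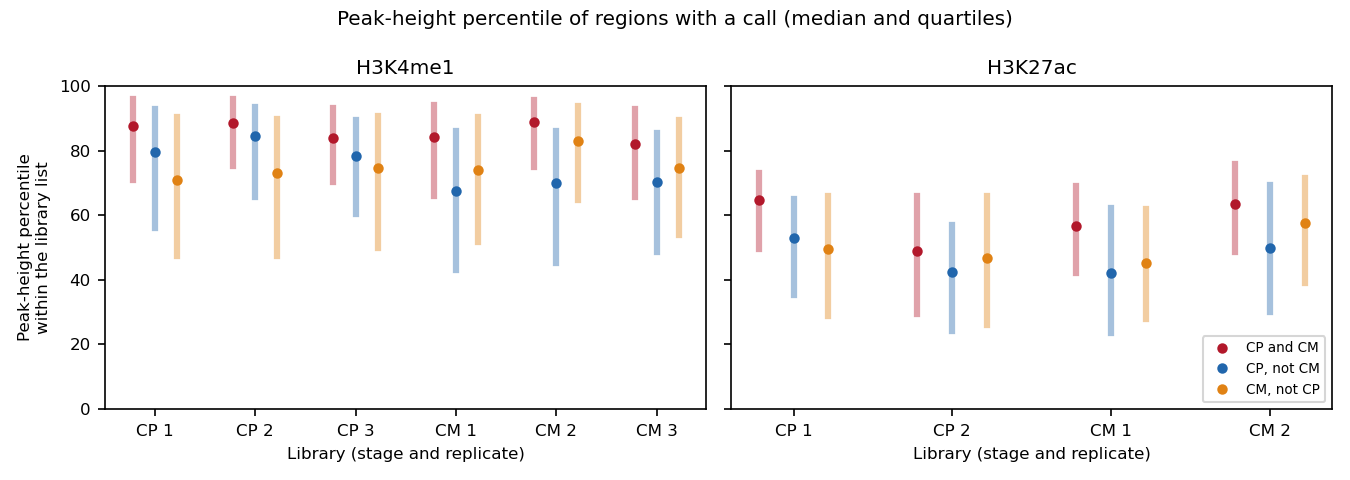
Percentile of peak height within the library's own list (y axis) for H3K4me1 (left) and H3K27ac (right) in each CP and CM library (x axis), for regions with a call in that library, with points at the median and bars from the lower to the upper quartile. Median ranks of the regions active in CP and CM lie between 82.2 and 88.8 for H3K4me1 and between 48.8 and 64.6 for H3K27ac, above both other groups in every library shown.

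Members differed widely from one another in H3K27ac. The mean H3K27ac rank over the 4 CP and CM libraries ran from 6.01 to 94.1, with a median of 57.7. The 5 highest were chr15:77625326-77636875 at 94.1, chr2:93147926-93155700 at 92.0, chr10:118183451-118185900 at 90.0, and chr7:87933976-87935125 and chr13:90152226-90153150, both at 89.5. Their lengths ran from 925 to 11550 bases, so the strongest acetylation was not limited to the longest members. The top region, on chromosome 15, had H3K27ac heights of 217 and 184 in ESC, 143 and 139 in MES, 237 and 171 in CP and 201 and 237 in CM. It was acetylated in every library of every stage, and it escaped the ESC class because H3K4me1 was listed there in only 1 of 3 ESC libraries and H3K4me3 in 1 of 2. The other 4 were listed for neither H3K4me1 nor H3K27ac in any ESC library. Of these, chr10:118183451-118185900 was also without both marks in MES, and had H3K27ac heights of 188 and 184 in CP and 143 and 209 in CM. Likewise chr13:90152226-90153150 was not listed in MES and had heights of 145 and 176 in CP and 189 and 186 in CM. In contrast chr7:87933976-87935125 was active in MES, with H3K27ac heights of 44 and 174 there, 148 and 196 in CP and 156 and 202 in CM.

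Most members were unmarked in stem cells. In ESC, 362 of the 615 (58.9%) had neither H3K4me1 nor H3K27ac in any library, beside 50.4% of all active regions, which include those chosen as active in ESC. The share was higher in the groups that also exclude ESC active regions, at 65.7% of CP without CM and 68.2% of CM without CP. H3K4me1 was in no ESC library at 399 members (64.9%, all active 53.9%) and in every ESC library at 50 (8.13%, all active 25.6%). By library, 33.7%, 10.9% and 17.1% of members had H3K4me1 in ESC, a mean of 20.5% ± 11.8 (SD, n = 3). H3K27ac was in 30.4% and 13.5% of them, a mean of 22% ± 12 (SD, n = 2). The rule removed regions active in ESC, so no test is given. It left 33 members (5.37%, all active 23.2%) with both marks in every ESC library, and 24 of these had H3K4me3 in both ESC libraries, 5 in 1 library and 4 in none. H3K4me3 was in both ESC libraries at 60 members (9.76%), beside 7.94% of all active regions, and in both MES libraries at 10 (1.63%, all active 1.06%). Thus a minority of these distal regions carried a promoter mark at the earlier stages, at shares near those of other active regions. For CP without CM and CM without CP the shares were 8.24% and 9.03% in ESC and 1.6% and 1.73% in MES. H3K4me3 was called in no library of any stage at 443 members (72%), beside 78.8% of all active regions. In CP and CM it was called at 12 members or fewer in any library, in the parts of a merged region outside that stage's own active region.

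By the mesoderm stage about as many members were fully marked as were unmarked. Both marks were in every MES library at 167 members (27.2%, all active 31.9%) and neither was in any MES library at 153 (24.9%, all active 39.7%). H3K4me1 without H3K27ac, the pattern of a primed enhancer, was found at 27 (4.39%, all active 2.89%). At 266 members (43.3%, all active 25.3%) the MES libraries differed in their calls, which is the largest class and limits what can be said of each region. This share was 46.3% in regions of CP without CM and 32.2% in regions of CM without CP. H3K4me1 was in every MES library at 267 members (43.4%, all active 39.7%) and in none at 170 (27.6%, all active 42.2%), and H3K27ac was in both MES libraries at 198 (32.2%, all active 34.4%). All active regions include those chosen as active in MES, so these background shares and the members' shares were not drawn by the same rule.

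**Figure D3:**
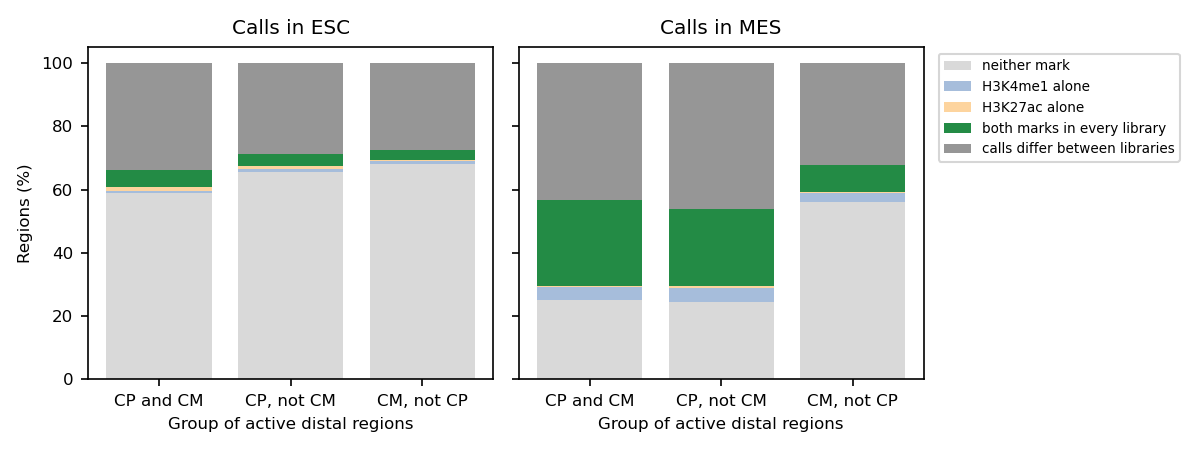
Share of regions in percent (y axis) by their H3K4me1 and H3K27ac calls in ESC (left) and MES (right) for the 3 groups of active distal regions (x axis), where "neither mark" means no call in any library of the stage. Regions active in CP and CM had both marks in every MES library at 27.2% and neither mark at 24.9%, close to regions of CP without CM, while regions of CM without CP had neither mark at 56.1%.

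In mesoderm the shared regions were close to the regions of CP without CM and far from those of CM without CP, which hold a MES active region themselves in 14.8% and 3.61% of cases. In the 3 MES libraries H3K4me1 was present at 66.7%, 53.5% and 48.8% of members, a mean of 56.3% ± 9.27 (SD, n = 3). It was at a mean of 54.7% ± 9.73 of regions of CP without CM and at 26.1% ± 9.07 of regions of CM without CP (n = 3 each). The members exceeded the regions of CM without CP by 28.5 to 32 percentage points in the 3 libraries, a mean of 30.2 ± 1.77 (SD, n = 3). They exceeded the regions of CP without CM by 1.62 ± 0.456 points over whole regions, a direction that turned in a 1 kb window at the centre of each region, as given below. An exact paired permutation test over 3 libraries cannot give a two-sided p under 0.25, which both differences reached, so it cannot decide here. H3K4me1 and H3K27ac also formed the groups at CP and CM. H3K27ac was at 56.9% and 37.4% of members in MES, 26.5 ± 2.31 points above regions of CM without CP and 2.07 ± 1.79 points above regions of CP without CM over whole regions (SD, n = 2, exact permutation p = 0.5, the smallest possible). So the gap to regions of CM without CP was wide in each library, while the gap to regions of CP without CM was small, and neither could pass a threshold of 0.05. The members and the regions of CM without CP also differed in length, with medians of 2600 and 1500 bases, and in a window of 1 kb at the centre of each member H3K4me1 was in every MES library at 36.1% in place of 43.4%. In that window H3K4me1 was at 56.1%, 48.1% and 43.4% of members in the 3 MES libraries, below the 60%, 49.3% and 44% of regions of CP without CM and above the 32.1%, 20.3% and 19% of regions of CM without CP. H3K27ac was at 43.3% and 29.4% of members, below the 45% and 32% of regions of CP without CM and above the 23.3% and 11.1% of regions of CM without CP. The small difference to regions of CP without CM thus turned in all 5 libraries at equal width, and the wide one to regions of CM without CP did not. The window can miss calls, as CP shows, where both groups have 100% over whole regions by the rule. There H3K27ac fell to 90.1% and 83.9% of members and to 90.3% and 87.9% of regions of CP without CM. H3K4me1 fell to 96.4%, 97.2% and 97.7% against 98%, 98.1% and 98.3%. Whether this accounts for the turn was not tested.

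Before CP, H3K4me1 was called in different stages and libraries among the members. It was in no ESC and no MES library at 147 members (23.9%, all active 23.9%), so that the first call came in CP, and in no ESC but every MES library at 133 (21.6%, all active 20.1%). For regions of CP without CM these shares were 25.9% and 21.1%, and for regions of CM without CP they were 51.8% and 6.57%. It was in every ESC and every MES library at 38 members (6.18%, all active 6.52%) and in every ESC and no MES library at 4 (0.65%, all active 15.3%). Except for the last, these shares were close to those of all active regions. The remaining members had H3K4me1 in only part of the ESC or MES libraries, so their timing is not resolved. Following both marks from ESC to MES, 130 members had neither mark in any library of either stage, 70 went from neither mark in ESC to both in every MES library, and 17 had both in every library of both stages. These counts were made for the members alone, so they do not show whether members differ from other active regions. The 3 longest members with no H3K4me1 in ESC or MES were chr13:45621501-45628200 (6700 bases), chr3:51527876-51533975 (6100 bases) and chr17:7470651-7476450 (5800 bases). None of the 3 was listed for H3K27ac before CP. The first had H3K27ac heights of 93 and 73 in CP and 184 and 187 in CM. The second had 75 and 55 in CP and 71 and 91 in CM. The third had 130 and 97 in CP and 73 and 59 in CM. Within each stage both libraries thus placed the first region highest of the 3 in CM and the third highest in CP.

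The members with an earlier history in mesoderm were the longer ones. The 167 with both marks in every MES library had a median length of 3325 bases and a median H3K4me1 rank of 92.8 in CP and 87.8 in CM. The 153 with neither mark had 1900 bases, 75.4 in CP and 77.2 in CM. The H3K27ac rank was 62.6 and 53.1 in CP for these groups, and 59.6 and 61.1 in CM. The group unmarked in MES was thus lower in CP but not in CM for H3K27ac. A longer region has more room for a call in any library, so length and MES marks move together here and their parts cannot be told apart.

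RNAPII Ser5P, which the rule did not use, was found at a minority of members but more often than at the compared regions. It was called in at least 1 of the 7 libraries at 222 members (36.1%), beside 20.9% of all active regions, 18.9% of CP without CM and 23.4% of CM without CP. By library, 9.43% of members had it in the single ESC library, 3.58% and 6.83% in MES, 15.6% and 10.6% in CP, and 7.8% and 10.6% in CM. Over all active regions, which include those active in ESC or MES, the shares were 9.74% in ESC, 1.74% and 5.07% in MES, 6.21% and 4.1% in CP, and 2.83% and 5.28% in CM. The members were thus above all active regions in the 6 libraries of the later stages and slightly below them in ESC. The means were 5.2% ± 2.3 for the pair of MES libraries, 13.1% ± 3.56 for the CP pair and 9.19% ± 1.95 for the CM pair (SD, n = 2 in each stage). The CP libraries gave the highest shares, and CP replicate 2 and CM replicate 2 both stood at 10.6%. These shares did not differ between stages past the threshold (exact permutation of the stage labels over 630 arrangements, p = 0.19, adjusted p = 0.381 over 2 marks). They did when every library was cut to an equal number of its highest regions (p = 0.019, adjusted p = 0.0381) and when the share of all active regions was subtracted in each library (p = 0.00952, adjusted p = 0.019), in the same exact permutation test. Over all alternatives the adjusted exact permutation p ran from 0.019 to 1, and the lists hold from 11332 to 48837 regions.

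Within each library the shared regions had more Ser5P than either compared group. Regions of CP without CM had 6.7% in ESC, 2.03% and 5.97% in MES, 7.81% and 4.98% in CP, and 1.66% and 3.32% in CM. The members were higher in 7 of 7 libraries, by a mean of 4.56 ± 2.81 percentage points (SD, n = 7), with an exact two-sided paired permutation p of 0.0156, the smallest possible, and an adjusted p of 0.0208 over 4 comparisons. Regions of CM without CP had 7.41% in ESC, 2.01% and 4.78% in MES, 7.83% and 4.95% in CP, and 4.95% and 10.2% in CM. The members were again higher in 7 of 7, by 3.18 ± 2.6 points (SD, n = 7, exact permutation p = 0.0156, adjusted p = 0.0208). The difference to regions of CM without CP was 7.78 and 5.62 points in the 2 CP libraries but 2.86 and 0.337 points in the 2 CM libraries. To regions of CP without CM it was 7.8 and 5.59 points in CP and 6.14 and 7.25 points in CM. The smallest margin in any library was that to regions of CM without CP in CM replicate 2. Each compared group failed the active criteria at CP or at CM, and whether Ser5P follows that choice was not tested. Without the libraries numbered 1 or 2 only 4 or 3 libraries remain, and the adjusted exact permutation p was 0.125 or 0.354 for both comparisons. With regions under 500 bases left out of every list, the differences were 3.03 and 2.48 points and the members were higher in 4 of 7 libraries and lower in 3 (adjusted exact permutation p = 0.125 for both).

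**Figure D4:**
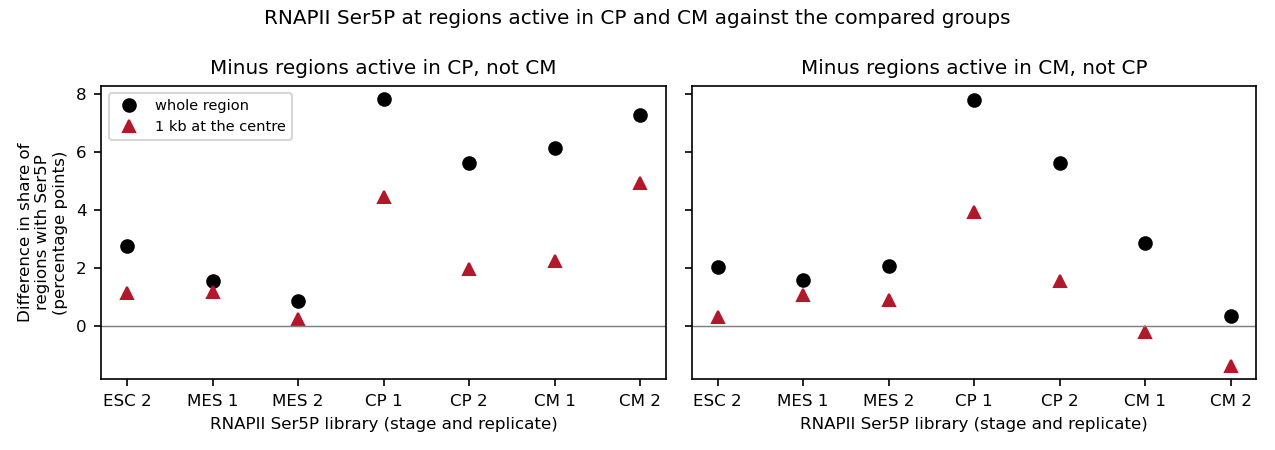
Difference in the share of regions with RNAPII Ser5P, in percentage points (y axis), between regions active in CP and CM and regions active in CP but not CM (left) or CM but not CP (right), in each of 7 libraries (x axis); circles use the whole region and triangles a window of 1 kb at its centre. Whole-region differences are above 0 in 7 of 7 libraries on both sides, while in the 1 kb window the 2 CM libraries fall below 0 on the right.

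Ser5P also varied with length, and neither difference passed the threshold in a 1 kb window or among regions of 2 to 4 kb. The rise was widest in CP replicate 1, from 3.11% of members under 2 kb to 16.2% at 2 to 4 kb and 30.7% at 4 kb and over. Among members Ser5P rose with length in every library but CM replicate 2, which had 10.9%, 11% and 9.33% in the same order. In a window of 1 kb at the centre of each region the difference was 2.29 points to regions of CP without CM. There 7 of 7 libraries were higher (exact permutation p = 0.0156, the smallest possible, adjusted p = 0.0625). To regions of CM without CP it was 0.874 points (5 of 7 higher, adjusted exact permutation p = 0.234). Among regions of 2 to 4 kb alone, a comparison added after the data were seen, it was 3.1 points (5 of 7 higher, adjusted exact permutation p = 0.156) and 0.683 points (4 of 7 higher, adjusted exact permutation p = 0.469). In that length class the members had 16.2% and 10.3% in CP and 7.72% and 11% in CM. Regions of CP without CM of 2 to 4 kb had 10.0% and 6.68% in CP and 2.28% and 3.87% in CM. Regions of CM without CP of 2 to 4 kb had 11.5% and 6.63% in CP and 7.77% and 13.8% in CM. In this length class members stood above regions of CP without CM in all 4 CP and CM libraries, and above regions of CM without CP in both CP libraries but in neither CM library. Under 2 kb members had 3.11% and 4.66% in CP and 1.55% and 10.9% in CM. Regions of CP without CM under 2 kb had 2.87% and 3.23% in CP and 0.717% and 2.63% in CM, each below the members. Regions of CM without CP under 2 kb had 3.74% and 3.1% in CP and 2.19% and 7.61% in CM. Against regions of CM without CP, members were thus lower in replicate 1 and higher in replicate 2 of CP and CM. At 4 kb and over members had 30.7% and 18.7% in CP and 16% and 9.33% in CM. Regions of CP without CM of that length had 20.9% and 7.27% in CP and 3.64% and 4.55% in CM, again each below the members. Regions of CM without CP of that length had 28.6% and 14.3% in CP and 17.8% and 19.5% in CM, the same order as at 2 to 4 kb. The classes under 2 kb and at 4 kb and over were not tested. Regions with no H3K4me3 at any stage, also a later addition, gave 4.22 and 2.62 points (6 of 7 higher, adjusted exact permutation p = 0.0417 for both). Over all alternatives the adjusted exact permutation p ran from 0.0156 to 0.354 against regions of CP without CM and from 0.0156 to 0.469 against regions of CM without CP.

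Few members carried Ser5P throughout. It was in both CP libraries at 43 (6.99%, all active 2.79%), in both CM libraries at 19 (3.09%, all active 1.46%) and in every CP and CM library at 4 (0.65%, all active 0.603%). The last share was near that of all active regions and below the 0.8% of CP without CM and the 0.839% of CM without CP. The 4 members were chr7:119895426-119908200, chr15:77625326-77636875, chr6:32425851-32433425 and chr2:93116551-93119900. Their Ser5P heights in CP and then CM were 20, 30, 13 and 36 for the first and 46, 67, 12 and 118 for the second. They were 15, 26, 10 and 52 for the region on chromosome 6, and 35, 109, 18 and 91 for the one on chromosome 2. All 4 had H3K27ac in both MES libraries and H3K4me1 in all 3, and the first and second also had Ser5P in ESC. By mark history, among members with both marks in every MES library, Ser5P was at a mean of 19.2% in CP and 10.8% in CM, against 7.84% and 8.82% where neither mark was in MES. In the 1 kb window these means were 9.88% and 5.69% against 6.54% and 5.56%, so the difference in CP was smaller in windows of equal length.

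**Figure D5:**
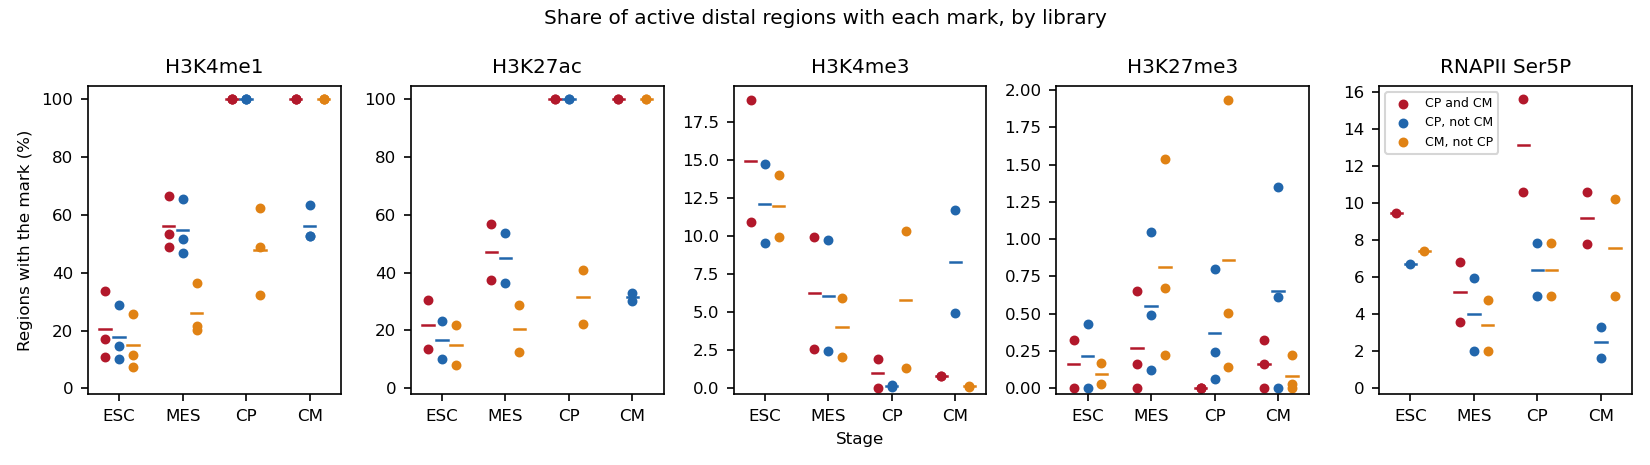
Share of regions in percent (y axis, with its own range in each panel) that overlap a call of each of 5 targets, by stage (x axis), with a point for each library and a line at the stage mean, for regions active in CP and CM, in CP but not CM, and in CM but not CP. Values of 100 for H3K4me1 and H3K27ac in CP and CM are set by the rule, and the other points show H3K27me3 at under 2% throughout and Ser5P highest in CP at the shared regions.

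H3K27me3, the Polycomb mark, was rarely called at the members. It overlapped 8 of the 615 in any of the 11 libraries (1.3%), beside 2.88% of all active regions, 3.14% of CP without CM and 2.6% of CM without CP. By library it was at 0.325% and 0% of members in ESC, 0.65%, 0.163% and 0% in MES, 0% in all 3 CP libraries, and 0.325%, 0.163% and 0% in CM. The means were 0.163% ± 0.23 in ESC (SD, n = 2), 0.271% ± 0.338 in MES (SD, n = 3), 0% in CP and 0.163% ± 0.163 in CM (SD, n = 3), with no difference between stages past the threshold (exact permutation p = 0.581, adjusted p = 0.581). No member had it in every ESC library. The 8 include chr19:44971901-44976200, with H3K27me3 in 2 of 3 MES libraries, and chr7:103818001-103825975, with it in 2 of 3 CM libraries, and each of the other 6 had it in 1 library alone. They were chosen for mention after their values were seen. The longest, chr7:149640701-149649050, is 8350 bases.

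Set against regions of CP without CM, H3K27me3 was lower at the members in 9 of 11 libraries and higher in none, with a mean difference of -0.322 ± 0.334 percentage points (SD, n = 11, exact two-sided paired permutation p = 0.00391, adjusted p = 0.0156). Against regions of CM without CP it was lower in 7 and higher in 3, a mean difference of -0.348 ± 0.617 points that missed the threshold (n = 11, exact permutation p = 0.0645, adjusted p = 0.0645). The gap to regions of CP without CM was widest in CM replicate 1, at -1.03 points, followed by CP replicate 1 at -0.8. The gap to regions of CM without CP was widest in CP replicate 1, at -1.93 points, the library with the longest list (38392 regions). The first call was lost without the libraries numbered 1 (-0.141 points, adjusted exact permutation p = 0.125) or 2 (-0.149 points, adjusted exact permutation p = 0.354). Over all alternatives the adjusted exact permutation p ran from 0.00391 to 0.354 for this comparison and from 0.0156 to 0.531 for that with CM without CP. Each of these shares rests on few regions, 4 members at most in a library. The compared groups failed the active criteria at CP or at CM, and whether H3K27me3 follows that choice was not tested.

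The members were spread over all 20 chromosomes used, with local groups. Their share among active regions was 6.08% in all, and by chromosome it ran from 3.59% on X (6 of 167) to 9.46% on chromosome 18 (37 of 391). The median distance from a member to the next one was 427050 bases, and 26.3% had another within 50 kb. Each within its own set, the share was 37.3% for CP without CM, 57.7% for CM without CP and 68.7% for all active regions. Linking members within 50 kb gave 453 single members, 51 pairs, 16 groups of 3 and 3 groups of 4. A sparser set lies farther apart by its number alone, so distances to the active regions of any stage compare better. The nearest of these lay at a median of 9150 bases from a member, 16325 from a region of CP without CM, 12775 from a region of CM without CP and 18150 over all active regions. Another active region lay within 10 kb of 317 members (51.5%), beside 39.6% of all active regions, 42.1% of CP without CM and 45.4% of CM without CP. The members thus had an active neighbour nearby more often than regions of either compared group, which is described here and not tested. The nearest H3K4me3 region of both CP libraries was at a median of 32725 bases, against 37362.5 and 30875 in the compared groups, and in CM it was at 32250 bases, against 33562.5 and 29900.

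The 3 groups of 4 members span 23.9 kb at chr9:63552426-63576325, 37050 bases at chr3:65673376-65710425 and 54.7 kb at chr2:93100976-93155700. The first and second hold no other active region, and the third holds 6 active regions of all stages in all. On chromosome 9 the members are 3400, 4250, 4275 and 2900 bases long and their mean H3K27ac ranks were 55.1, 63.4, 76.0 and 45.9. H3K4me1 was in 1 or 2 of the 3 MES libraries at each of them and H3K27ac in 1 of 2, so this group was partly marked in mesoderm. On chromosome 3 the lengths are 3850, 5250, 1750 and 1300 bases and the ranks were 66.7, 72.8, 62 and 55.1. All of these members but chr3:65707051-65708800, had H3K4me1 in all 3 MES libraries. On chromosome 2 the ranks were 72.2, 84.1, 74 and 92.0, all above the median member, and each of the 4 had Ser5P in at least 1 CP library. This last group contains chr2:93147926-93155700, with H3K27ac heights of 157 and 161 in CP and 227 and 234 in CM, and chr2:93116551-93119900, with 134 and 103 in CP and 141 and 213 in CM. None of the 12 had H3K4me3 in ESC, CP or CM, and chr2:93100976-93103875 and chr2:93116551-93119900 had it in 1 MES library.

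The edge of the class is not sharp. Of the 1626 regions of CP without CM, 349 (21.5%) missed the CM criteria by 1 library, with 99 lacking 1 H3K4me1 call, 158 lacking 1 H3K27ac call and 92 having 1 H3K4me3 call. Of the 3577 regions of CM without CP, 734 (20.5%) missed the CP criteria by 1 library, with 215, 314 and 205 in the same order. A missing H3K27ac call was the most common in both. Regions with neither H3K4me1 nor H3K27ac in any library of the other stage were 337 (20.7%) of the first group and 932 (26.1%) of the second. Many regions assigned to a single stage were thus marked in part at the other, and these values are a description with no test.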

How the data were processed

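ChIP-seq reads were aligned with Bowtie to mm9 by the authors, per the submitters' processing notes, without a stated version, and the region caller is not given in the sources used here. Each deposited list gives the position and length of every region in bases (a unit recorded as other), its highest point and its totals. Peak heights and totals in the deposited lists were treated as signal, not as counts, since no source gives their unit. Read depth is unknown, and no counting interval is given. The list of H3K4me1 in ESC replicate 1 has no header and was read in the column order of the rest. Whole cell extract libraries (8 of 54 labelled) have no list. RNAPII Ser5P libraries used altered sonication and wash buffers, per the labels.

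Regions of a mark were joined over the libraries of a stage, and any overlap of 1 base or more was taken as presence. Merged active regions were scored the same way against every list, and the highest call inside a region gave its peak height and its percentile within that list, ties at their middle. Region groups were compared within each library by exact two-sided paired permutation (sign flips), adjusted by Benjamini-Hochberg over 4 comparisons, and stages by exact permutation of stage labels over 2 marks. Only RNAPII Ser5P and H3K27me3, absent from the rule, were tested against 0.05. The compared groups fail the active criteria at CP or CM, with H3K27ac in both CM libraries at 20.8% of regions of CP without CM. Whether Ser5P and H3K27me3 follow this choice was not tested. The permutation tests of H3K4me1 and H3K27ac in MES had too few libraries to pass 0.05 and decide nothing. Members and lists were chosen with earlier results of these data known.

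Named regions are the 5 longest members, the 5 with the highest mean H3K27ac percentile in CP and CM, the 3 clusters with the most members, and the 3 longest each with Ser5P in every CP and CM library, with H3K27me3 in every ESC and no CM library (0 found), and with H3K4me1 in no ESC or MES library. Where the Ser5P rule left a single region over, it was named too, after its values were seen. Nearest genes and sequences are not reported, since no mm9 genome or annotation was used here. The distance of 10 kb to a neighbour was set after values at other distances had been seen. The code was tested on simulated data. Python 3.11.15, numpy 2.4.6, pandas 2.3.3, scipy 1.17.1 and matplotlib 3.10.9 were used.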

Additional observations from a re-analysis of the deposited data

How the results depend on the processing

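The number of shared regions (615) fell to 409 with regions under 500 bases left out and rose to 2311 with a majority of libraries, and was 868 to 1449 without 1 replicate number. Their median length (2600 bases) was 3250 with equal numbers of top regions, 3625 with regions closer than 1 kb merged, 3575 without regions under 500 bases, 2150 with a majority, and 2150 to 2525 without 1 number. The share with H3K4me1 in every MES library (43.4%) was 36.1% in the 1 kb window and 40.9% to 48.9% without 1 number. The share within 50 kb of another (26.3%) was 21.6% merged, 47.9% with a majority, 34.1% to 43.3% without 1 number, and 20.8% at 20 kb and 33.2% at 100 kb. Ser5P against CP without CM (4.56 points) missed the threshold at 2.29 in the 1 kb window, 3.03 without regions under 500 bases and 3.1 at 2 to 4 kb, and was 4.53 to 6.31 without 1 number. Against CM without CP (3.18) it missed at 0.874, 2.48 and 0.683, and was 3.0 to 5.63. Between stages Ser5P passed with equal numbers (p = 0.019, exact permutation) and minus the share of all active regions (p = 0.00952, exact permutation). Without numbers 1 or 2 that test could not be run, since 1 library per stage is left. H3K27me3 against CP without CM (-0.322) missed at -0.0468 with equal numbers, -0.102 with a majority, -0.157 in the 1 kb window and -0.441 at 2 to 4 kb, and was -0.475 to -0.141 without 1 number. Against CM without CP (-0.348) it passed at -0.096 with equal numbers, -0.325 without regions under 500 bases and -0.504 with 50% overlap, and was -0.453 to -0.123 without 1 number. None of the results above changed direction under the alternatives run, but the small MES differences to CP without CM, of H3K4me1 and H3K27ac, turned in the 1 kb window. The causes were not tested, except that fewer libraries raise the smallest p. Correlations of deviations between same-numbered libraries were low for Ser5P (0.002 to 0.057), but for H3K27me3 they ran from 0.001 to 0.438. The highest were 0.124 for H3K4me1, 0.163 for H3K27ac and 0.13 for H3K4me3. Some pairing by number thus cannot be set aside for H3K27me3. With the replicate block the stage tests gave exact permutation p = 0.167 for Ser5P and 0.25 for H3K27me3, the same calls. List sizes differ between libraries, H3K27ac, H3K4me3 and Ser5P have 2 libraries or fewer per stage, and depth is unknown, so an absent call does not show that a mark is absent.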
